A study of Homo sapiens with 6 samples.

Results

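The epithelial-mesenchymal markers examined here are 10 genes whose symbols were looked up in the deposited count table: the epithelial markers CDH1 and EPCAM, the mesenchymal markers CDH2, VIM and FN1, and the transcriptional repressors SNAI1, SNAI2, ZEB1, ZEB2 and TWIST1. All 10 of 10 symbols were found among 19470 genes, and 9 of them had enough counts to be tested, among 13066 tested genes in all. The libraries come from HCCC9810, an established human cholangiocarcinoma (CCA) cell line labelled wild type, cultured for 24 h either with isolinderalactone (ILL), a natural sesquiterpene lactone, at 20 μM or with DMSO as vehicle. Each group holds 3 libraries of total RNA, all 6 share the same cell line and time point, and a single line with 1 dose and 1 time point is the limit of the model. The labels do not say whether the 3 libraries of a group came from separate cultures, so p-values measure the spread between these libraries, which may be technical.

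In epithelial-mesenchymal transition (EMT), epithelial cells loosen their junctions and take on a migratory form. E-cadherin, encoded by CDH1, holds neighboring epithelial cells together, and its replacement by N-cadherin, encoded by CDH2, is called the cadherin switch. Snail (SNAI1), Slug (SNAI2), ZEB1 and ZEB2 are zinc finger repressors that bind E-box sequences and silence CDH1 and other epithelial genes, while TWIST1 is a basic helix-loop-helix factor that acts in the same program. The study asked how ILL acts on the migration and invasion of CCA cells, and the comparison here asks how the RNA levels of these genes differed between ILL-treated and control cells.

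Depth was even across the libraries, with total counts between 34282764 and 37758569, and the 10 most abundant genes took 5.20% to 5.45% of the counts in control libraries and 8.12% to 8.25% in ILL libraries. Levels are therefore given as CPM (read counts relative to library size) after scaling by edgeR's TMM method, which corrects for such differences in composition. A gene passed the test at an adjusted p under 0.05 from edgeR's quasi-likelihood test, and a differentially expressed gene (DEG) also changed more than 2-fold. The treatment moved a large part of the transcriptome. Of the tested genes, 73.1% passed the test, 36.2% higher and 36.9% lower with ILL, and 23.9% were DEGs, 12.5% higher and 11.4% lower. In 75.4% of tested genes the libraries of the 2 groups did not overlap. Against this background, 7 of the 9 tested members passed (77.8%), 3 higher and 4 lower, 3 were DEGs (33.3%), and 7 did not overlap between groups (77.8%). These shares are close to those of all genes, so the content of the comparison lies in the size and direction of each member's change rather than in their number.

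Markers of the biliary cell type were present in part. In controls KRT7 and KRT19 were at 1785 ± 23.2 and 2126 ± 126 CPM (SD, n = 3) and SOX9 at 66.1 ± 4.22 CPM, whereas SPP1 was low and CFTR had 0 counts in every library, and the sum over the 6 markers of this list was 3888 to 4140 CPM in controls and 4561 to 4896 CPM with ILL. The markers did not move together, since KRT7 rose to 2784 CPM while KRT19 and SOX9 fell to 1875 and 44.7 CPM. The summed level of 7 fibroblast markers was 12.1 to 14.2 CPM in controls and 16.8 to 18.4 CPM with ILL, mostly from COL1A1, with DCN, PDGFRA and PDGFRB near 0. The sum of 4 endothelial markers was 1.03 to 1.65 CPM in controls and 1.74 to 1.91 CPM with ILL. For 6 hepatocyte markers, CYP3A4 at 0 included, it was 29.7 to 33.6 CPM and 29.2 to 47.3 CPM. For 6 hematopoietic markers it was 133 to 141 CPM and 192 to 196 CPM, nearly all from LAPTM5 and CD68, with PTPRC and CD3E at or near 0. The part of such markers in the members' values was not tested.

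CDH1 rose about 4-fold with ILL. Its level was 239, 245 and 257 CPM in control replicates 1 to 3 and 997, 1104 and 1006 CPM in ILL replicates 1 to 3. Every ILL library lay above every control library, and within a group the highest library exceeded the lowest by a factor of 1.08 in controls and 1.11 with ILL. CDH1 had a log2 fold change of 2.07 (standard error 0.05, 95% confidence interval 1.96 to 2.18), a 4.19-fold increase with an adjusted p of 1.0e-20. Of the tested genes, 451 had a larger log2 fold change. The raw counts behind these values were 9276, 8600 and 9102 in controls and 34898, 38011 and 35191 with ILL, so counting error is small beside the difference between groups. CDH1 lies on the forward strand of chromosome 16 (GRCh38, 68737225 to 68835548). In these bulk libraries, more cells with CDH1 RNA and more CDH1 RNA per cell cannot be told apart.

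EPCAM, which encodes an epithelial adhesion protein of the cell surface, changed far less. It was at 258, 262 and 243 CPM in control libraries and 295, 294 and 311 CPM in ILL libraries. The groups did not overlap, but the distance between them was small beside that of CDH1. For EPCAM the log2 fold change was 0.24 (standard error 0.05, 95% confidence interval 0.13 to 0.34, adjusted p = 0.000187), an increase of 1.18-fold that passed the test and was under the fold limit for a DEG. Under scaling by library size only, and under every other alternative run for EPCAM, it was also higher with ILL and passed.

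**Figure D1:**
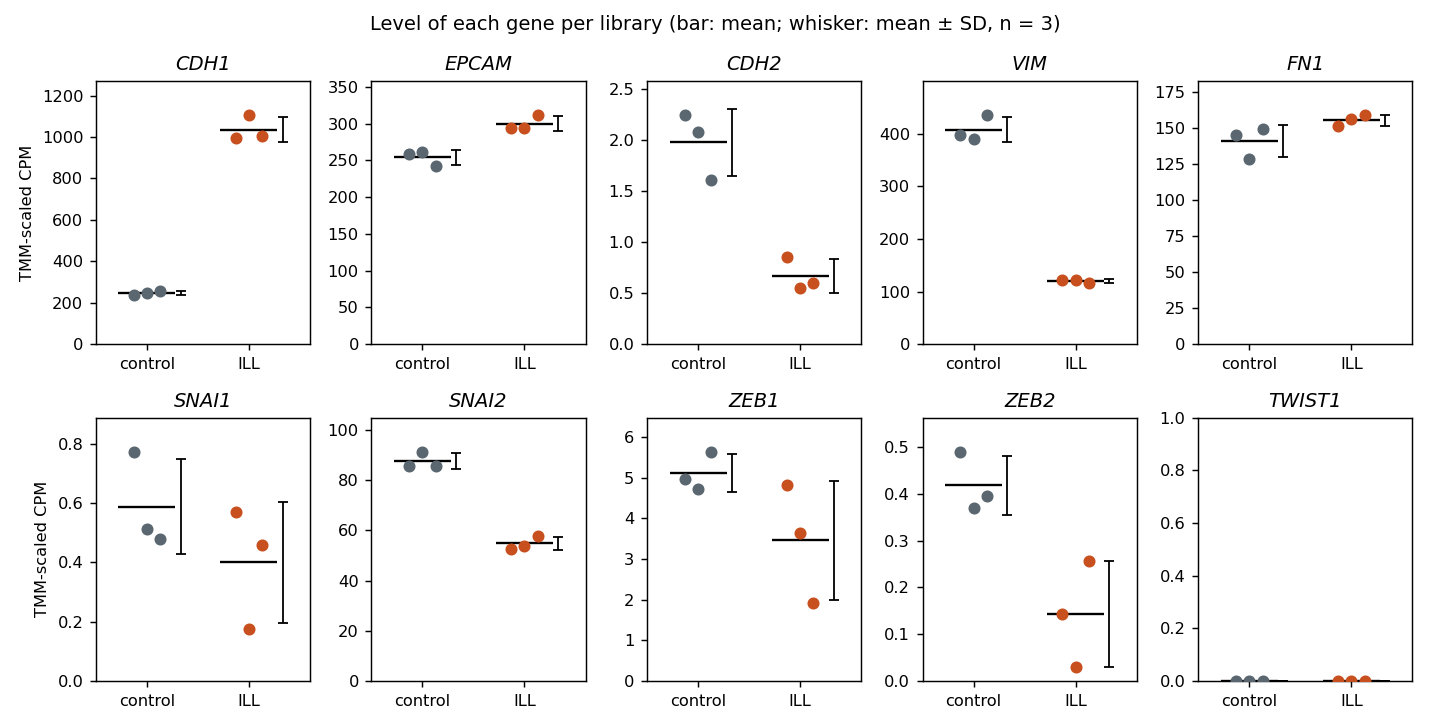
Level of each of the 10 genes in TMM-scaled CPM (vertical axis, linear and starting at 0 in each panel) in the 3 control and 3 ILL libraries, each point 1 library, with bars for the group mean and whiskers for the mean ± SD (n = 3). CDH1 points with ILL lie between 997 and 1104 CPM against 239 to 257 CPM in controls, VIM points drop from 391 to 435 CPM to 116 to 122 CPM, and TWIST1 is at 0 in all 6 libraries.

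Of the mesenchymal markers, VIM and CDH2 fell, and FN1 lay slightly above its control level. VIM encodes vimentin, the intermediate filament protein of mesenchymal cells, and was among the most abundant members in controls at 398, 391 and 435 CPM. With ILL it was at 122, 121 and 116 CPM. All ILL libraries lay below all control libraries, with a spread within the ILL group of 1.05 between the highest and the lowest. The log2 fold change of VIM was -1.77 (standard error 0.05, 95% confidence interval -1.88 to -1.66, adjusted p = 2.8e-19), 3.41-fold lower with ILL. Of the tested genes, 573 had a lower log2 fold change. VIM lies on the forward strand of chromosome 10 (GRCh38, 17228259 to 17237593).

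CDH2, on the reverse strand of chromosome 18 (GRCh38, 27950966 to 28177446), was a scarce transcript in both groups. Its counts were 87, 73 and 57 in control libraries and 30, 19 and 21 in ILL libraries, or 2.24, 2.08 and 1.61 CPM against 0.857, 0.552 and 0.601 CPM. The groups did not overlap. For CDH2 the fitted log2 change was -1.56 (95% confidence interval -2.33 to -0.78, standard error 0.37, adjusted p = 0.000644), 2.94-fold lower with ILL, and the interval was several times wider than those of CDH1 and VIM. Even in controls, CDH1 had more than 100 counts for each CDH2 count, so N-cadherin RNA was a small fraction of the RNA of these 2 cadherins before treatment.

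FN1 encodes fibronectin, an extracellular matrix protein that mesenchymal cells deposit. It was at 145, 128 and 149 CPM in controls and 152, 156 and 159 CPM with ILL. The ILL libraries lay just above the control libraries. The log2 fold change of FN1 was 0.14 (standard error 0.06, 95% confidence interval 0.02 to 0.26, adjusted p = 0.0304), which passed the test and is opposite in sign to those of VIM and CDH2. FN1 passed in 9 of the 16 alternatives and not in the other 7. With scaling by library size only the log2 fold change was 0.07 (adjusted p = 0.251), without control replicate 2 it was 0.08 (adjusted p = 0.28), and without ILL replicate 3 it was 0.13 (adjusted p = 0.0888), whereas with DESeq2's Wald test it was 0.15 (adjusted p = 0.0237). The first 3 of these values are from edgeR.

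**Figure D2:**
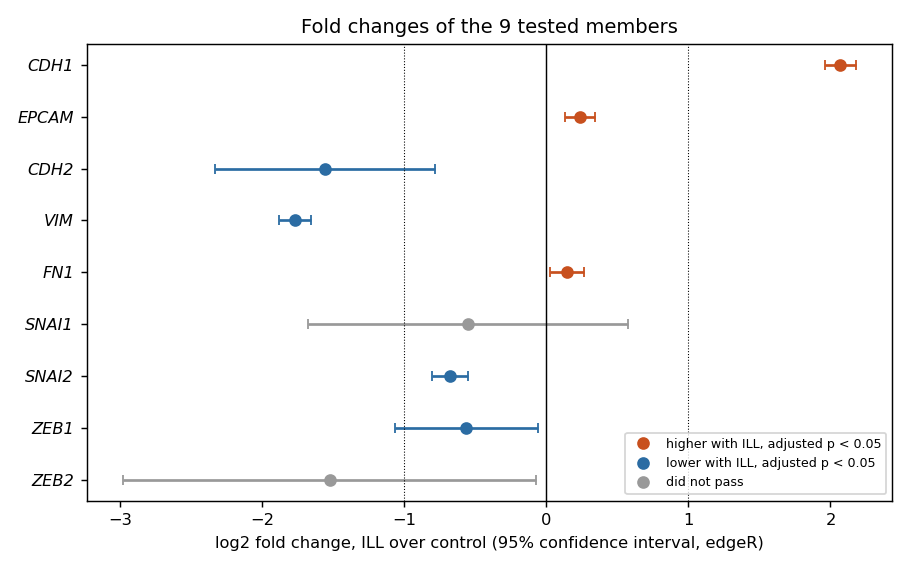
Log2 fold change of ILL over control (horizontal axis) for the 9 tested genes, each point the edgeR estimate and each bar its 95% confidence interval, with dotted lines at a 2-fold change in either direction. CDH1 (2.07), CDH2 (-1.56) and VIM (-1.77) lie beyond the dotted lines and passed, and the intervals of the scarce transcripts CDH2, SNAI1 and ZEB2 are the widest.

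Of the 5 repressors, SNAI2 was the one with a substantial level. Its product Slug represses CDH1 and is a marker of migrating and stem-like epithelial cells. SNAI2 was at 85.8, 91.2 and 85.6 CPM in controls and 52.6, 54.0 and 57.9 CPM with ILL, without overlap between the groups. SNAI2 had a log2 fold change of -0.67 (standard error 0.06, 95% confidence interval -0.80 to -0.55, adjusted p = 4.3e-10), 1.6-fold lower with ILL and short of the limit for a DEG. Its direction and its call were kept in the 16 alternatives.

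SNAI1, which encodes Snail, was close to the limit of what these libraries resolve. It had 30, 18 and 17 counts in controls and 20, 6 and 16 with ILL. The groups overlapped, and within the ILL group the highest level was 3.28 times the lowest. The log2 fold change of SNAI1 was -0.55 (standard error 0.54, adjusted p = 0.364), and its 95% confidence interval from -1.68 to 0.57 includes both a decrease of more than 2-fold and a small increase. A change in SNAI1 was not detectable at this depth.

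ZEB1 was at 4.97, 4.72 and 5.63 CPM in controls and 4.83, 3.63 and 1.92 CPM with ILL. ILL replicate 1 lay within the control range and ILL replicate 3 well below it, so the groups overlapped and the ILL libraries differed from each other by up to 2.52-fold. For ZEB1 the log2 fold change was -0.56 (standard error 0.24, 95% confidence interval -1.07 to -0.06, adjusted p = 0.0422), which passed the test only narrowly. Without ILL replicate 3 the ZEB1 value was -0.27 (adjusted p = 0.27), without ILL replicate 1 it was -0.88 (adjusted p = 0.00532), and it no longer passed without ILL replicate 2 or without any one of the 3 control libraries.

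The letters to which Snail and ZEB factors bind were looked up in the promoter windows of the RefSeq table (GRCh38.p14), which span 250 bases before to 50 bases after a start. Windows of 5 of the 10 members were searched, CDH2, VIM, FN1, ZEB1 and ZEB2, with 12 windows in all. CDH1, EPCAM, SNAI1 and TWIST1 had no entry, and SNAI2 was left out of the search. The E-box CACCTG, searched on both strands and so also as CAGGTG, was found in 2 of the 12 windows, and in 20.6% of all 35116 windows of 300 bases. Both windows belong to ZEB1, which has 7 of them, and hold 4 matches. They are shown because ZEB1 is itself a factor that binds this E-box. The capitals mark the E-box, and positions count from the start of the window's transcript.
ZEB1 window 1, position -57, chr10:31318351-31318374, forward strand: aggtgacagCAGGTGagggccggg
ZEB1 window 3, position -242, chr10:31318966-31318988, forward strand: ccccaccaCACCTGaggaaaact
ZEB1 window 3, position -85, chr10:31319122-31319145, forward strand: gtcgtaaacCAGGTGcggtgggga
ZEB1 window 3, position 34, chr10:31319240-31319263, forward strand: ggatggcccCAGGTGtaagcgcag
A match is a run of letters and not a measured binding site. The windows of VIM, FN1, CDH2 and ZEB2 did not hold these letters, which says nothing about binding elsewhere. The broader E-box CANNTG, which includes CACCTG and CAGGTG, was in 68.7% of all windows.

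ZEB2 was rarer still, with 19, 13 and 14 counts in controls and 5, 1 and 9 with ILL. It entered the test through its control libraries alone, since none of its ILL libraries reached the minimum level of the filter. Summed over 3 libraries, 46 counts in controls (exact Poisson 95% interval 33.7 to 61.4) stand against 15 with ILL (8.40 to 24.7), intervals that cover counting error only. The groups did not overlap, but the log2 fold change of -1.52 (standard error 0.70) had an adjusted p of 0.0517 and did not pass. Without ILL replicate 3 it was -2.23 (adjusted p = 0.0293) and without ILL replicate 2 it was -1.05 (adjusted p = 0.214), so the value rests on single libraries.

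TWIST1 had 0 counts in every library of both groups. A count of 0 allows a level of up to 0.0795 to 0.0875 CPM, taking 3 counts per library as the limit, and no fold change can be given. TWIST1 was thus not detected at a depth at which ZEB2 was still counted in all 6 libraries. For 6 of the 10 members, namely CDH1, CDH2, VIM, ZEB1, ZEB2 and TWIST1, an antisense gene with overlapping exons is annotated in GENCODE release 29, and whether the reads were counted by strand is not given in the sources used here.

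To compare levels between genes, the deposited FPKM values, which divide by gene length, were used. In controls VIM was the highest member at 193 ± 10.4 FPKM (SD, n = 3), followed by EPCAM at 168 ± 7.42, CDH1 at 52.6 ± 1.76, SNAI2 at 41.1 ± 1.55 and FN1 at 16.6 ± 1.28 FPKM. Neighbors in this order did not overlap between libraries. The remaining members were all under 1 FPKM, with ZEB1 at 0.638 ± 0.0558, CDH2 at 0.442 ± 0.0748, SNAI1 at 0.354 ± 0.0978 and ZEB2 at 0.0463 ± 0.0071 FPKM, and the libraries of CDH2 and SNAI1 overlapped. With ILL the order at the top changed. CDH1 became the highest member at 210 ± 10.9 FPKM (SD, n = 3), ahead of EPCAM at 189 ± 6.23, and VIM followed at 54.2 ± 1.55 FPKM. SNAI2, at 24.5 ± 1.19 FPKM, and FN1, at 17.5 ± 0.364 FPKM, kept their places, while ZEB1 overlapped with SNAI1 and SNAI1 with CDH2. Among all 19470 genes, CDH1 moved from rank 1389 to rank 312 by mean FPKM, VIM from 361 to 1257, EPCAM from 424 to 345 and SNAI2 from 1766 to 2550.

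**Figure D3:**
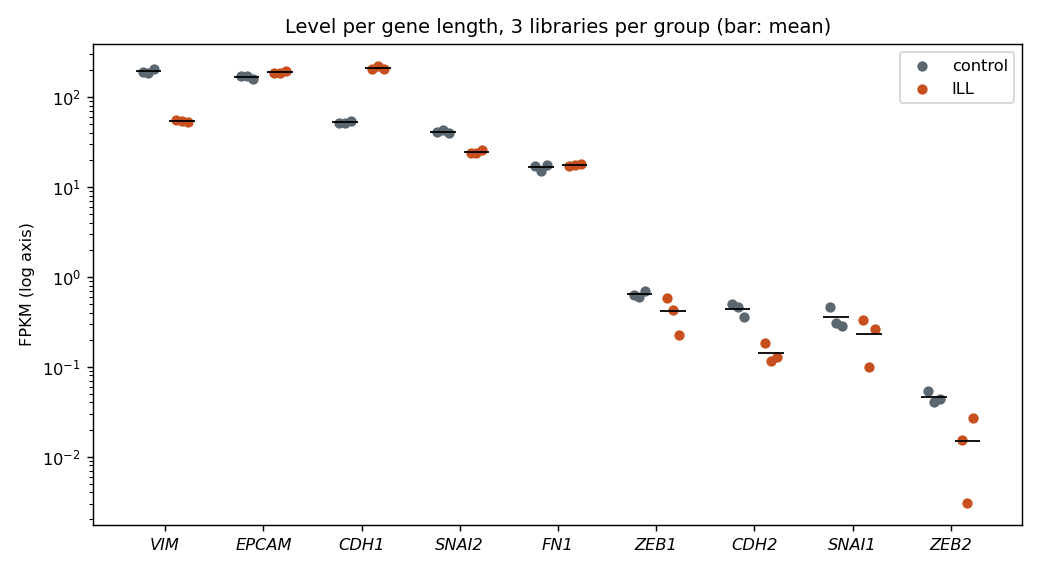
FPKM (vertical axis, logarithmic) of 9 genes in each control and ILL library, ordered by their control mean, with bars for group means; TWIST1, at 0 in every library, is left out. VIM, the highest gene in controls at 193 FPKM, falls below CDH1 (210 FPKM) and EPCAM (189 FPKM) with ILL, and ZEB1, CDH2, SNAI1 and ZEB2 stay under 1 FPKM in both groups.

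A ratio of 2 genes within a library does not depend on how libraries are scaled. The ratio of CDH1 to VIM counts was 0.601, 0.627 and 0.592 in controls and 8.17, 9.12 and 8.68 with ILL. CDH1 counts were thus fewer than VIM counts in every control library and more numerous in every ILL library. The log2 ratio differed by 3.83 between groups, with an SD of 0.04 in controls and 0.08 with ILL (n = 3 each), which is a 14.3-fold change of the ratio. For CDH1 to CDH2, the RNA counterpart of the cadherin switch, the ratio was 107, 118 and 160 in controls and 1163, 2001 and 1676 with ILL, a 12.5-fold change. CDH1 to FN1 changed 3.79-fold and EPCAM to VIM 4.02-fold. In each of the 4 ratios every ILL library lay above every control library. The exact permutation test, two-sided, gave p = 0.1 for each, also after adjustment over the 4 ratios, and 0.1 is the smallest p that 3 libraries against 3 can give.

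**Figure D4:**
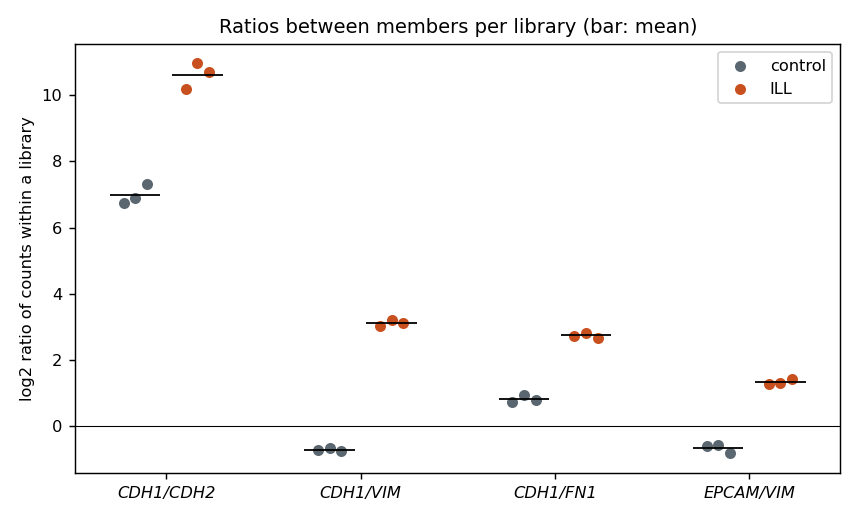
Log2 ratio of the counts of 2 genes within a library (vertical axis) for 4 gene pairs, each point 1 library and each bar a group mean. The CDH1/VIM ratio lies below 0 in the 3 control libraries and above 3 in the 3 ILL libraries, and no pair overlaps between groups.

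Genes that work with the members were read from 11 lists, from which the members themselves were left out, 254 different genes of which 224 were tested. Over all 11 lists, 44 DEGs lay above control with ILL and 23 below it, or 19.6% and 10.3% of those tested, beside 12.5% and 11.4% of all tested genes. The median log2 fold change was 0.25, beside -0.0012 over all tested genes.

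E-cadherin works at the membrane with catenins. In the list of catenins and other classical cadherins, 11 of 18 genes were tested. DEGs numbered 5 higher (45.5%) and 2 lower (18.2%), beside 12.5% and 11.4% of all tested genes. The median log2 fold change was 0.51. It was between 0.50 and 0.53 without 1 library and between 0.016 and 0.62 over all alternatives. JUP, which encodes plakoglobin, rose from 768 ± 21.6 to 2080 ± 131 CPM (SD, n = 3), a log2 fold change of 1.44, and CTNND1, which encodes the p120 catenin that keeps cadherins at the membrane, rose by a log2 fold change of 1.31. CTNNA1 (alpha-catenin) passed at 0.51, whereas CTNNB1 (beta-catenin) was at 160 ± 8.70 and 168 ± 3.31 CPM and did not pass (adjusted p = 0.218). The largest rise was in CDH15, a muscle cadherin of low level here, with 50, 11 and 15 counts in controls and a log2 fold change of 2.35. The cadherins CDH11, typical of mesenchymal cells, and CDH24 fell by 1.46 and 1.52 on the log2 scale. CDH11, at 189 ± 3.37 CPM in controls and 68.8 ± 2.97 CPM with ILL, was far more abundant than CDH2.

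Most epithelial junction and cytoskeleton markers rose. All 30 were tested, 24 passed higher and 4 lower, and 12 were DEGs, each of them higher with ILL (40.0% of the list beside 12.5% of all tested genes). The median log2 fold change was 0.71. TJP3, a tight junction scaffold protein, rose from 4.62 ± 0.521 to 43.8 ± 1.89 CPM (SD, n = 3), a log2 fold change of 3.24 (adjusted p = 2.5e-19). PRSS8, a membrane-anchored serine protease, and CLDN1, a tight junction claudin, rose by 2.01 and 1.99. The members of this list that fell were PKP2 and the keratins KRT8, KRT18 and KRT19, of which KRT18 fell by 0.82 on the log2 scale. Reads of these keratins can be shared with their pseudogenes, and the part of such reads in the keratin values was not tested.

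Mesenchymal markers and matrix genes were divided. Of 37 genes 29 were tested, 10 passed higher and 10 lower, and the median log2 fold change was 0.24, which was 0.12 without control replicate 1, 0.05 without control replicate 2 or without ILL replicate 3 and 0.06 without control replicate 3 or without ILL replicate 1. DEGs made up 24.1% of the list, close to the 23.9% of all tested genes. The DEGs lower with ILL were AXL, a receptor tyrosine kinase, with a log2 fold change of -2.38 (from 239 ± 3.0 to 45.9 ± 1.88 CPM, SD, n = 3), COL6A3 with -1.59 and TGFBI, a secreted matrix protein, with -1.40. The DEGs higher with ILL were TAGLN and CALD1, which encode actin-binding proteins of contractile cells, TNC, a matrix glycoprotein, and MMP14, a membrane-bound matrix protease. TAGLN rose from 263 ± 17.5 to 2134 ± 57.9 CPM (SD, n = 3), a log2 fold change of 3.02 (adjusted p = 1.8e-23), CALD1 by 2.12, TNC by 1.80 and MMP14 by 1.63. MMP14 was named after its value was seen, to complete the 4 DEGs.

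**Figure D5:**
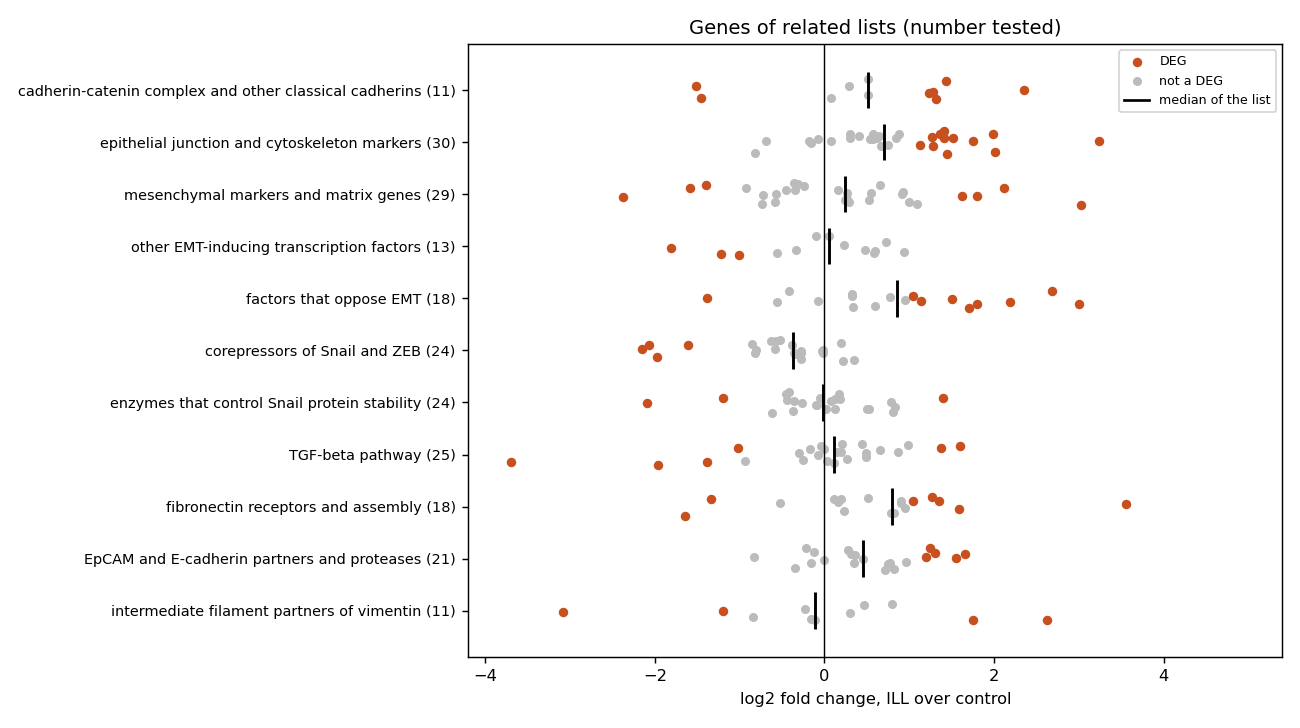
Log2 fold change of ILL over control (horizontal axis) for the tested genes of 11 lists, each point 1 gene, colored where it is a DEG, with a bar at the median of the list and the number tested in brackets. Medians lie at 0.71 for epithelial junction and cytoskeleton markers and 0.86 for factors that oppose EMT, near 0 for other EMT-inducing factors, and at -0.38 for corepressors of Snail and ZEB.

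Of the other transcription factors that can drive EMT, 13 of 19 were tested, 3 were DEGs with lower values and 0 with higher ones, while 4 passed higher and 5 lower in edgeR's test without the fold limit. DEGs made up 23.1% of those tested, close to the 23.9% of all tested genes. The median log2 fold change was 0.05 and ranged from -0.16 to 0.24 over the alternatives, so it has no stable sign. These DEGs included TEAD4 and TEAD1, DNA-binding partners of YAP, with log2 fold changes of -1.81 and -1.01. YAP1 itself was at 0.23.

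The factors that oppose EMT and keep epithelial identity were mostly higher. Of 18 tested genes 12 passed higher and 3 lower, beside 36.2% and 36.9% of all tested genes. DEGs numbered 8 higher (44.4%) and 1 lower (5.6%), beside 12.5% and 11.4% of all tested genes. The median log2 fold change was 0.86. It was between 0.651 and 1.0015 without 1 library and between 0.251 and 1.0015 over all alternatives. The grainyhead factors GRHL3 and GRHL1 rose by log2 fold changes of 3.0 and 2.68, from 0.95 ± 0.221 and 2.43 ± 0.110 CPM to 7.65 ± 1.14 and 15.6 ± 0.758 CPM (SD, n = 3), and KLF4 rose by 2.18. GRHL2, the most abundant of the 3 grainyhead factors in controls at 66.2 ± 3.65 CPM, fell by 0.42 on the log2 scale. ESRP1, a splicing regulator of epithelial cells, passed at 0.95, and its relative ESRP2 was at -0.08 and did not pass. HNF4A, a low-level transcript here, was the DEG lower with ILL, at -1.39.

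Snail and ZEB proteins silence their targets through corepressors, and this list was lower in most of its genes. All 24 were tested, 2 passed higher and 18 passed lower, and the median log2 fold change was -0.38. The 4 DEGs, each lower with ILL, are 16.7% of the list. Of all tested genes, 11.4% were DEGs lower with ILL and 23.9% were DEGs in either direction. DNMT1, the maintenance DNA methyltransferase, went from 186 ± 10.6 to 41.8 ± 4.46 CPM (SD, n = 3), a log2 fold change of -2.16, and SUV39H1 and EZH2, which methylate histone H3, had -2.07 and -1.97. EED, a partner of EZH2, was the remaining DEG at -1.61. MKI67 and PCNA, markers of dividing cells chosen after their values were seen, also fell. MKI67 was at 328 ± 2.65 CPM (SD, n = 3) in controls and 35.5 ± 1.34 CPM with ILL, and PCNA had a log2 fold change of -2.41. DNMT1 and EZH2 are known to be expressed with the cell cycle, and the part of proliferation in their change was not tested.

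The enzymes that control the stability of Snail protein moved in both directions. Of 24 tested, 7 passed higher and 9 lower, beside 36.2% and 36.9% of all tested genes. Here 1 was a DEG higher and 2 were DEGs lower, 12.5% of the list, under the 23.9% of all tested genes. The median log2 fold change was -0.0186. Leaving out any 1 of the 6 libraries put that median between -0.0326 without control replicate 1 and -0.112 without ILL replicate 3. TRIM21, a ubiquitin ligase, rose by a log2 fold change of 1.39, while LOXL3 and the deubiquitinase USP37 fell by 2.09 and 1.20. GSK3B, the kinase that marks Snail for degradation, passed at 0.80, under the fold limit.

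TGF-beta is a main inducer of EMT. All 25 genes of this list were tested, 10 passed higher and 7 lower, and 2 were DEGs higher and 4 lower. Of all tested genes, 36.2% passed higher and 36.9% lower. DEGs made up 24% of the list, close to the 23.9% of all tested genes. The median log2 fold change was 0.12. That median was 0.0536 without control replicate 2, 0.0548 without control replicate 3, 0.0648 without ILL replicate 1 and 0.179 without control replicate 1. LTBP2, which encodes a latent TGF-beta binding protein, had the lowest value of the list, -3.69 (standard error 0.21, adjusted p = 4.0e-14), from 11.7 ± 1.08 to 0.899 ± 0.301 CPM (SD, n = 3), whereas LTBP1 rose by 1.59. PMEPA1, a feedback inhibitor that TGF-beta induces, fell by 1.96 from 700 ± 50.6 CPM, SMAD6 and SMURF2, which dampen the pathway, fell by 1.38 and 1.02, and BAMBI, a decoy receptor, rose by 1.37. The ligand TGFB1 and the receptor TGFBR2 were at -0.08 and -0.04 and did not pass.

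Receptors and assembly factors of fibronectin moved in both directions, more of them higher. Of 18 tested genes 14 passed higher and 3 lower, beside 36.2% and 36.9% of all tested genes. DEGs numbered 5 higher (27.8%) and 2 lower (11.1%), beside 12.5% and 11.4% of all tested genes, so the lower share is close to that of all genes. The median log2 fold change was 0.80. ITGB1, the integrin beta 1 subunit, rose from 1907 ± 111 to 4576 ± 49.0 CPM (SD, n = 3), a log2 fold change of 1.26, and FERMT2, which activates integrins, rose by 1.35. ITGB3 had the largest value, 3.55, from a very low level of 0.179 ± 0.0909 CPM. Its counts were 11, 4 and 5 in controls and 104, 51 and 72 with ILL. ITGB3 entered the test through its ILL libraries, since not all of its control libraries reached the minimum level of the filter. DPP4, also low, rose by 1.58. TGM2, a transglutaminase that crosslinks fibronectin, fell by 1.65 from 4116 ± 73.2 CPM, and TNS1 fell by 1.34. ITGB6 was the fifth DEG higher with ILL, at 1.05.

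Partners and proteases of EpCAM and E-cadherin included 21 tested genes, of which 13 passed higher and 2 lower. The 5 DEGs, each higher with ILL, are 23.8% of the list, beside 23.9% of all tested genes that were DEGs in either direction and 12.5% that were DEGs higher with ILL. They included ADAM17, a shedding protease that can cut EpCAM, with a log2 fold change of 1.20, CD9, a tetraspanin, with 1.24, and RNF43, of low level, with 1.66. RNF43 had 30, 23 and 8 counts in controls and 77, 57 and 49 with ILL. It entered the test through its ILL libraries, since control replicate 3 fell short of the filter's minimum level. Among 11 tested intermediate filament proteins and partners of vimentin, 4 passed higher and 4 lower, beside 36.2% and 36.9% of all tested genes. DEGs were 18.2% of this list in each direction, beside 12.5% higher and 11.4% lower among all tested genes. LMNB1 and LMNB2, the B-type lamins, fell by 3.08 and 1.20 on the log2 scale, and the cytolinker EPPK1 and the low-level muscle filament gene DES rose by 2.62 and 1.75.

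Among the genes whose levels were most alike to those of CDH1 over the 6 libraries, by Pearson's r of log2(CPM + 1), was ELMO3, with an r of 0.9998. For VIM the 2 most alike were HNRNPU and TUBB4B, both at 0.9999, and for CDH2 they were MAMDC2 at 0.9986 and MCFD2 at 0.9964. Since the 6 libraries form 2 groups, such values mainly restate the difference between groups, and 2828 of 12048 compared genes had an r above 0.95 with CDH1.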

How the data were processed

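RNA-seq libraries of HCCC9810 cells (3 ILL, 3 vehicle) were grouped by their titles. Values of 2 kinds were deposited for each library, unnormalized counts by gene symbol and FPKM. The submitters' processing notes name GRCh38 and DESeq2, while the aligner, the counting program and the annotation are not given in the sources used here. A single length per gene was solved from the deposited counts and FPKM themselves. Dividing the counts by this length and by the library total returned 100% of 88055 nonzero deposited FPKM values within 0.1%. This shows only that the counts and FPKM fit together across libraries, and it is no independent check of the lengths.

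Genes were filtered with filterByExpr (at least 10 counts in a library of median size, in 3 libraries), scaled by TMM and tested with edgeR 4.0.16 in R 4.3.3, with Benjamini-Hochberg adjustment over all tested genes. The fit was run on simulated counts of 13066 genes, 200 of them changed. Of the changed genes 99.5% were called DEGs, and 2 unchanged genes were called. Far fewer genes changed there than in these data, where 73.1% passed. The simulation therefore does not check the scaling under so broad a change. DESeq2 1.42.0, limma 3.58.1 on log2 of FPKM plus a pseudocount of 1 or 0.1, and a gene length trend from mgcv 1.9.3 were among the alternatives. Libraries of the same group were not copies of each other (chi-square per degree of freedom 5.09 to 11.5). The biological coefficient of variation was 0.0717.

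Members and lists were chosen with earlier results of these data known, and the lists were written by hand. Genes named from a list are at most 3 DEGs at each end, averaging 1 CPM or more, whose groups did not overlap, and others are named to complete a count or as known partners of a member. Fold changes were fitted with edgeR's default prior count. Results for some genes are not reported here.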

Additional observations from a re-analysis of the deposited data

How the results depend on the processing

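CDH1, EPCAM, VIM and SNAI2 kept their direction and passed in all 16 alternatives, and CDH2 in the 14 in which it was tested. CDH1 and VIM were DEGs in all 16 and CDH2 in 13 of 14, the exception being limma on log2 of FPKM plus 1 without a filter (-0.33). SNAI1 did not pass in any of 13. FN1 did not pass with library size only (0.0739), with the gene length trend as an offset (0.0739), or with limma on FPKM (0.0723 with a pseudocount of 1 with or without the filter, 0.0762 with 0.1), and it was between 0.0763 and 0.185 without 1 library. ZEB1 did not pass with DESeq2's Wald test (-0.56) or limma on log2 of FPKM plus 1 without a filter (-0.22), and was between -0.88 and -0.27 without 1 library. ZEB2 passed with library size only (-1.59), with the gene length trend (-1.59) and with that unfiltered limma fit (-0.0437, a scale on which low genes barely move), and was between -2.23 and -1.05 without 1 library. The causes were not tested.

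The number of DEGs was 3120 (1635 higher, 1485 lower). It was 1591 (668 and 923) with limma at a pseudocount of 1 and a filter on genes averaging under 1 FPKM, 1609 (680 and 929) without that filter, and 2156 with a pseudocount of 0.1, of which 909 were higher and 1247 lower. It was 9547 (4726 and 4821) without the fold limit. Over the 11 lists, DEGs lower with ILL numbered 14 and 15 in place of 23 in the limma fits with a pseudocount of 1. The share of DEGs that were higher went from 52.4% to 42.2% with a pseudocount of 0.1, to 42.0% and 42.3% with 1, and to 47.4% (1488 higher, 1649 lower) with library size only, and the median of all genes with 0.1 was -0.10. Without 1 library the number of DEGs was between 3083 and 3165.

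No pairing of libraries by replicate number was seen in the values, which cannot show whether same-numbered libraries were handled together. Deviations of same-numbered libraries correlated at 0.007, -0.02 and -0.06, and those of libraries with different numbers at -0.059 to 0.072. With the replicate number as a block, 3111 genes were DEGs and no member changed its call. For the ratios, an exact sign-flip test over pairs gave p = 0.25, the smallest that 3 pairs allow. Depth limits SNAI1, ZEB2, TWIST1 and CDH2, which had fewer than 100 counts in every library.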
